A study of Rattus norvegicus with 4 samples.

Results

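The mitochondrial ribosomal protein genes of the rat, whose symbols start with Mrpl or Mrps, were measured in nanotube-exposed NR8383 cells. Members were taken as all rat RefSeq symbols made of Mrpl or Mrps followed by a digit, wherever a sample probe of the array carried a transcript accession of that gene. Of 78 protein-coding genes that fit this rule, 68 had a matched probe, out of 16579 measured genes in all. They were 44 genes of the large subunit, among them Mrps30 and Mrps18a, whose proteins sit in the large subunit despite their names, and 24 genes of the small subunit. The other 10 (Mrpl28, Mrpl33, Mrpl39, Mrpl41l1, Mrpl42l1, Mrpl43, Mrps6, Mrps10, Mrps28 and Mrps36l1) were not analysed here, nor were 40 pseudogenes that carry such a symbol. Mrpl9, Mrpl11 and Mrpl24 did not appear as symbols in the gene table used, so the set lacks them as well.

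NR8383 is an established macrophage line grown from the lung lavage of a normal rat. The 4 samples formed 1 group: cells that had been passaged 20 times, seeded for 48 h and then kept for 4 h with carbon nanotubes carrying carboxyl groups (NRCWE042), at 6.8 cm2 of nanotube surface per cm2 of culture. The design text calls the 4 samples of a condition biological replicates and names a condition without nanotubes, whose samples were not analysed here. All values below therefore describe exposed cells, and no difference between conditions was measured or tested. The cells are 1 line with no introduced allele and stand in for alveolar macrophages only as far as a cultured line does.

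The mitochondrial ribosome translates the few messages of the mitochondrial genome, all of which encode subunits of the respiratory chain and the ATP synthase. Its RNAs are made inside the organelle, whereas its proteins are encoded in the nucleus, made in the cytosol and imported. Compared with its bacterial relative it has less RNA and more protein: many of its proteins belong to bacterial ribosomal protein families, and others have no counterpart in bacteria.

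Levels are log2 of the processed signal minus the array's 75th percentile over all sample probes, so 0 is that percentile. Because probes bind with different strength, the level of a gene is compared over arrays and not with that of another single gene. Counts of genes above or below the 75th percentile do set a level beside other probes, so they carry this limit. A gene was detected when the scanner software marked at least 1 of its probes well above background on all 4 arrays. The arrays differed in brightness: the 75th percentile was 128, 131, 98.5 and 49.0 signal units on replicates 1 to 4, and between 31.1% and 38.8% of the probes were well above background. Relative to the spike-in RNAs, which are added in fixed amounts, the percentile lay 0.12 above, 0.61 below and 1.30 log2 units below replicate 1 on replicates 2, 3 and 4. Statements below on which arrays were high or low hold for the percentile scaling; scaling to the spike-ins moves all genes of an array by the same offset, so it alters such an order within a gene but not the difference between genes. Replicate 3 also had an area of low signal that held 7.54% of the sample spots, and 8 members had a spot in it: Mrpl13, Mrpl14, Mrpl32, Mrpl44, Mrpl48, Mrpl52, Mrps7 and Mrps21. Macrophage markers were detected for 7 of 11 measured genes (Cd68, Csf1r, Spi1, Mrc1, Pparg, Itgam and Siglec1), while Marco, Adgre1, Cd163 and Cebpa were well above background on no array. Of the markers of other cells, 0 of 8 for lung epithelium, 0 of 4 for neutrophils and 0 of 2 for B cells were detected on all 4 arrays. So were 1 of 6 for fibroblasts (Dcn) and 2 of 5 for T cells (Cd3d, and Cd4, which rat macrophages also carry). Well above background on no array were 7 of the 8 lung epithelium genes and 3 of the 4 neutrophil genes.

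Every measured mitochondrial ribosomal protein gene was detected in the exposed cells. The count was 68 of 68 on all 4 arrays, against 44.4% of all measured genes. Of the genes for cytosolic ribosomal proteins, all 71 measured were likewise detected, in a list that was narrowed after its values were seen. When each probe of a gene had to be well above background, 62 of 68 members were counted, against 38.6% of all measured genes. A level above the array's 75th percentile on all 4 arrays was found for 64 of 68 members (94.1%), against 35.9% of all measured genes and 80.9% of the detected ones. This count depends on the percentile chosen: it was 46 with the percentile over spots and 34 with that over probes detected on all arrays. The share of all detected genes above either of these percentiles is not given here, so neither count is read as high or low. In bulk RNA, fewer cells with a transcript and less of it per cell cannot be told apart.

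**Figure D1:**
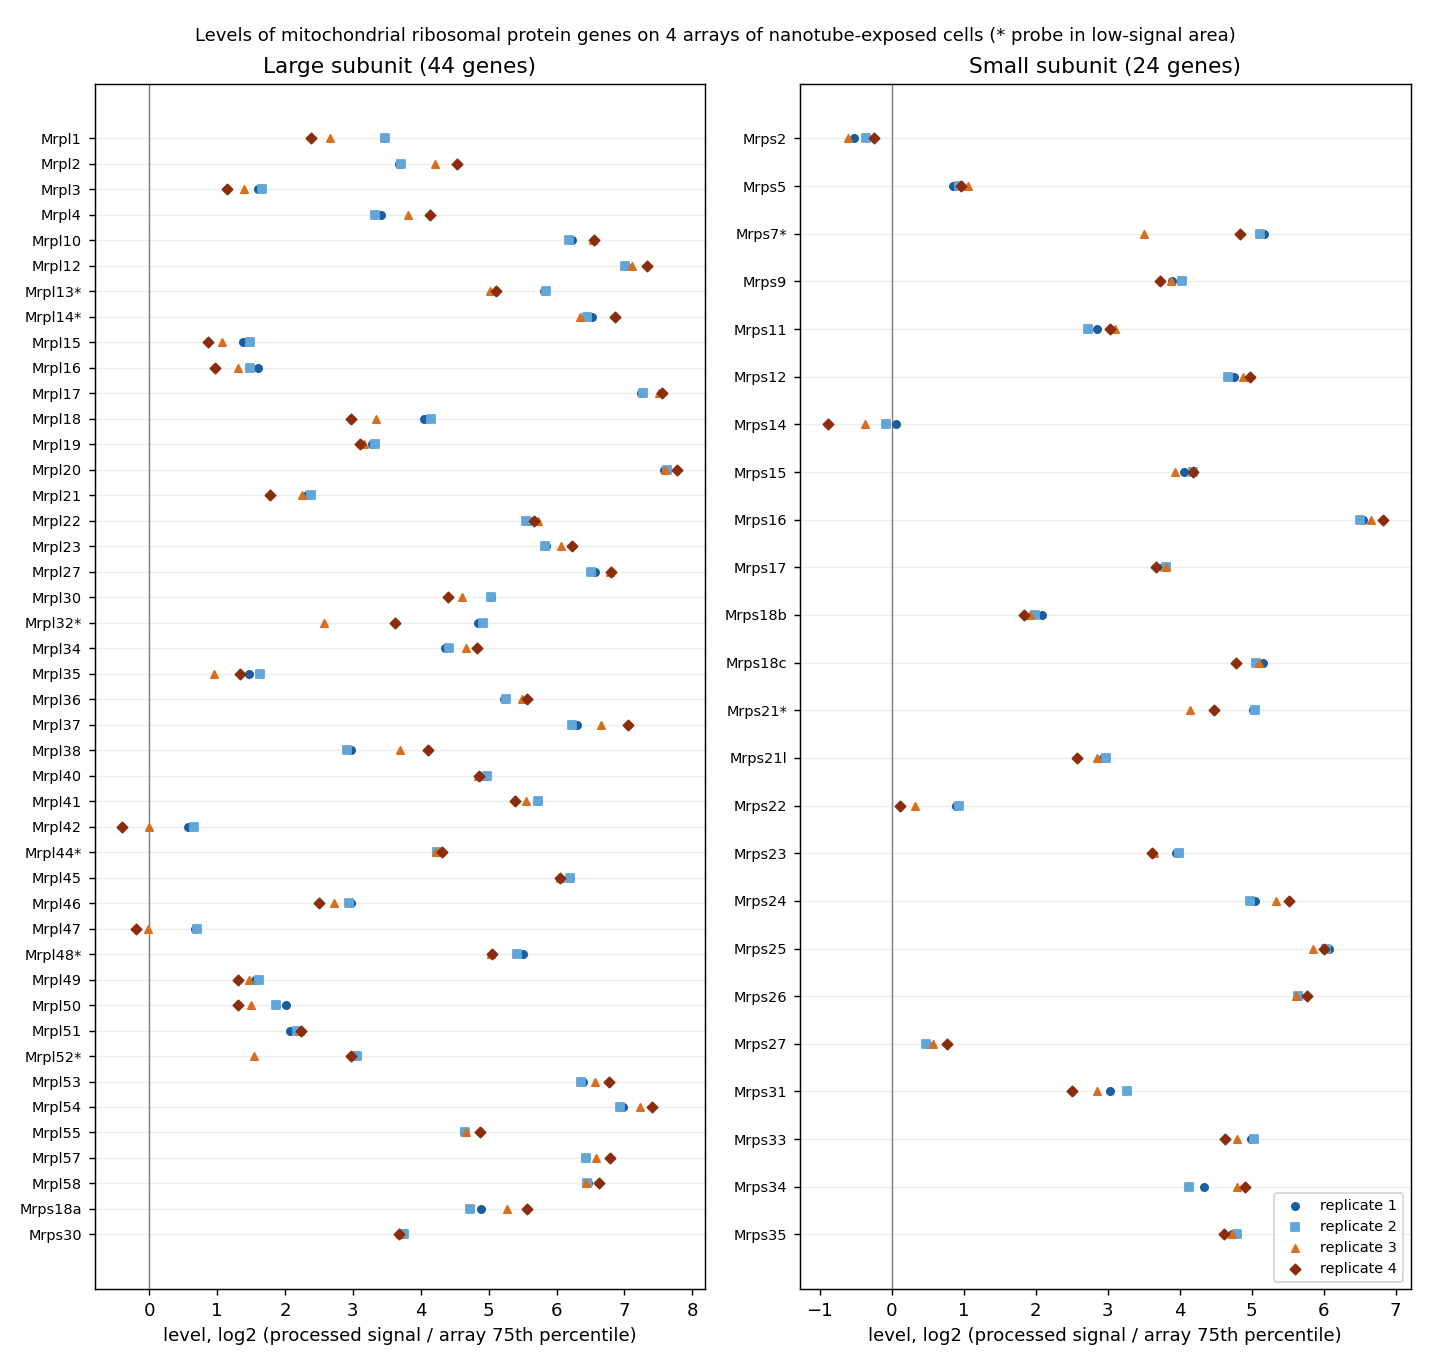
Level of each member on the 4 arrays of nanotube-exposed cells, as log2 of processed signal over the array's 75th percentile, with 44 large subunit genes on the left and 24 small subunit genes on the right; each marker is 1 replicate, and an asterisk marks a probe with a spot in the low-signal area of replicate 3. The markers of most genes lie close together, and only Mrpl42, Mrpl47, Mrps2 and Mrps14 have a marker below 0.

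The 4 members that did not stay above the percentile were 2 of the large and 2 of the small subunit. Mrps2, whose protein sits between the head and the body of the small subunit, lay at -0.53, -0.36, -0.61 and -0.25 on replicates 1 to 4 (SD 0.16) and was the 1 member below the percentile on every array. Mrps14 lay at 0.06, -0.08, -0.37 and -0.89 (SD 0.42). For this gene of the decoding head only replicate 1 was above 0. Mrpl42, a protein without a bacterial counterpart, lay at 0.57, 0.66, -0.01 and -0.40 (SD 0.50), and Mrpl47, of the rim of the exit tunnel, at 0.67, 0.71, -0.02 and -0.19 (SD 0.46). Both were above the percentile on replicates 1 and 2 and below it on replicates 3 and 4.

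The stalk of the large subunit recruits the translation factors, and its 4 measured genes were detected with a median SD of 0.19, as over all 68 members. Mrpl12, whose protein forms the mobile part of the stalk, lay at 7.03, 7.00, 7.11 and 7.34 (SD 0.15). Mrpl10, which ties Mrpl12 to the ribosome, lay at 6.22, 6.19, 6.54 and 6.55 (SD 0.19). Mrpl53 lay at 6.38, 6.37, 6.56 and 6.77 (SD 0.19), and Mrpl54 at 6.98, 6.94, 7.23 and 7.41 (SD 0.22). In all 4 genes replicates 3 and 4 lay above replicates 1 and 2, with at most 0.47 log2 units between the lowest and the highest array.

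Proteins at the rim of the polypeptide exit tunnel hold the ribosome at the inner membrane, into which the products are inserted. The 6 measured genes of this list had a median SD of 0.12, against 0.19 over all 68 members. Mrpl45, the contact to the inner membrane, lay at 6.20, 6.20, 6.05 and 6.06 (SD 0.08). Mrpl22, which lines the tunnel, lay at 5.59, 5.55, 5.73 and 5.66 (SD 0.08). Neither gene moved by more than 0.18 log2 units over the arrays. Mrpl44, which carries a fold like that of ribonuclease III, lay at 4.30, 4.24, 4.23 and 4.32 (SD 0.04), and its spot lies in the low-signal area of replicate 3. Mrpl17 lay at 7.25, 7.27, 7.52 and 7.56 (SD 0.16) and Mrpl23 at 5.84, 5.83, 6.07 and 6.23 (SD 0.19). Mrpl47 was the widest of the list, with the values given above.

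The central protuberance, which faces the small subunit, was measured through 8 genes, and its median SD was 0.23. An SD above 0.5 was found in 3 of the 8, against 10.3% of all 68 members and 11.6% of all detected genes. With so few genes this is not read as a trait of the region. Mrpl18, of a bacterial family, lay at 4.05, 4.16, 3.34 and 2.98 (SD 0.57), and Mrpl38, without a bacterial counterpart, at 2.98, 2.92, 3.70 and 4.11 (SD 0.58). These genes for proteins of the same region ran in opposite order over the arrays, Mrpl18 with its low values and Mrpl38 with its high values on replicates 3 and 4, a contrast that an offset common to all genes of an array leaves as it is. Mrpl52 lay at 2.99, 3.05, 1.54 and 2.97 (SD 0.74), and its 1 low value was on replicate 3, where its spot lies in the low-signal area. The remaining genes were tighter. Mrpl58, a peptidyl-tRNA hydrolase built into the ribosome, lay at 6.47, 6.44, 6.43 and 6.63 (SD 0.09), and Mrpl40 at 4.97, 4.97, 4.85 and 4.86 (SD 0.07). Mrpl27, of a family that in bacteria reaches the peptidyl transferase centre, lay at 6.56, 6.50, 6.79 and 6.80 (SD 0.15). Mrpl46 lay at 2.97, 2.94, 2.71 and 2.51 (SD 0.22) and Mrpl48, in the low-signal area, at 5.51, 5.42, 5.04 and 5.05 (SD 0.24). For both, replicates 3 and 4 were the low arrays.

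Of the small subunit, 7 genes for proteins of the decoding head and body were measured, and their median SD was 0.16. Mrps12, next to the decoding centre, lay at 4.75, 4.67, 4.89 and 4.98 (SD 0.14). Mrps5 lay at 0.85, 0.93, 1.06 and 0.96 (SD 0.09) and Mrps9 at 3.90, 4.03, 3.88 and 3.73 (SD 0.12). These were among the steadier members, whereas Mrps7 was the 1 small subunit gene with an SD above 0.5. It lay at 5.17, 5.11, 3.51 and 4.84 (SD 0.78), and its low value was on replicate 3, where its only spot lies in the low-signal area. Mrps11 lay at 2.86, 2.72, 3.11 and 3.03 (SD 0.17).

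Mammals have 3 genes related to bacterial S18, and their products are found in different places: Mrps18b and Mrps18c in the small subunit and Mrps18a in the large one. Mrps18a lay at 4.88, 4.73, 5.27 and 5.56 (SD 0.38), with replicate 4 highest. Mrps18b lay at 2.09, 1.99, 1.92 and 1.84 (SD 0.11), and Mrps18c at 5.16, 5.07, 5.11 and 4.78 (SD 0.17), both with replicate 4 lowest. The 3 paralogues were thus all detected and did not share an order over the arrays.

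Genes whose human counterparts cause combined oxidative phosphorylation deficiencies, disorders in which several respiratory complexes fail together, were measured for 11 of the 13 listed and were all detected, with a median SD of 0.20. Mrpl3 lay at 1.60, 1.66, 1.40 and 1.15 (SD 0.23). Mrps22 lay at 0.89, 0.93, 0.32 and 0.12 (SD 0.41), and Mrps23 at 3.95, 3.99, 3.64 and 3.61 (SD 0.20). In these 3 genes replicates 1 and 2 were the high arrays. Mrps16 lay at 6.54, 6.51, 6.66 and 6.82 (SD 0.14), and Mrps34, required for a stable small subunit, at 4.34, 4.13, 4.79 and 4.91 (SD 0.37). These ran the other way, with replicates 3 and 4 high. Mrps25 lay at 6.07, 6.03, 5.86 and 6.00 (SD 0.09), with 0.21 log2 units between its lowest and highest array. The values of Mrpl12, Mrpl44, Mrps2, Mrps7 and Mrps14, also in this list, are given above.

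The SD over replicates had a median of 0.19 in the members, with quartiles at 0.12 and 0.34, against a median of 0.25 in all detected genes. This order turned with normexp background correction (0.24 in the members, against 0.23) and with spike-in scaling (0.70, against 0.58). An SD above 0.5 was found in 7 of 68 members (10.3%), against 11.6% of all detected genes. The members' share was the higher one with normexp correction (16.2%, against 7.01%), spike-in scaling (79.4%, against 59.8%) and quantile normalization (13.2%, against 9.06%). It was also higher with percentiles over detected probes (14.7%, against 8.98%) or over spots (11.8%, against 9.24%), and without replicate 4 (5.88%, against 5.57%). The share is therefore not read as above or below that of all genes. By subunit, the 7 members were 6 of 44 large subunit genes and 1 of 24 small subunit genes. The member just inside that limit was Mrpl42 (SD 0.50) and the member just outside it was Mrpl47 (SD 0.46). In 6 members (8.82%), 1 array was more than 1 log2 unit away from the median of the rest, against 8.88% of all detected genes: Mrpl1, Mrpl18, Mrpl32, Mrpl38, Mrpl52 and Mrps7. A single array stood apart from 3 close ones, by its gap as a share of the range, in 2 members (Mrpl52 and Mrpl55), against 3.18% of all detected genes.

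Mrpl32 had the widest spread of all members. It lay at 4.85, 4.92, 2.57 and 3.62 (SD 1.12), which is 5.08-fold on the linear scale between its lowest and its highest array. Its protein is trimmed by the mitochondrial m-AAA protease before it enters the ribosome, as shown in yeast and mouse. Its only spot lies in the low-signal area, and its lowest value was on replicate 3. Mrpl1, a large subunit protein of a bacterial family outside that area, lay at 3.46, 3.47, 2.67 and 2.38 (SD 0.56). The 8 members with a spot in the area had a median SD of 0.44, against 0.18 for the other 60. The area was outlined by its low signal on replicate 3 in these same data, so a wider spread inside it is partly built in. The median for all detected genes in the area is not given here. Leaving out the spots of the area removed 5 members (Mrpl32, Mrpl44, Mrpl48, Mrpl52 and Mrps7). The 63 others kept their detection marks, which were not read anew without these spots. Of these, 4 had an SD above 0.5 (Mrpl1, Mrpl18, Mrpl38 and Mrpl42), which is 6.35%, against 10.0% of all detected genes.

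Seen by descent, the 25 large subunit genes of bacterial families had a median SD of 0.27 and the 19 without a bacterial counterpart 0.17, whereas in the small subunit the medians were 0.15 for 14 genes and 0.19 for 9. The difference between these lists was not tested, and 8 of the 68 members lie in the low-signal area. Among bacterial-family genes of the large subunit not yet described, Mrpl2, near the peptidyl transferase centre, lay at 3.68, 3.71, 4.20 and 4.53 (SD 0.41), and Mrpl4 at 3.42, 3.32, 3.81 and 4.13 (SD 0.37). Both were highest on replicate 4, as was Mrpl37, which has no bacterial counterpart, at 6.30, 6.23, 6.66 and 7.06 (SD 0.38). Mrpl13 lay at 5.81, 5.85, 5.02 and 5.11 (SD 0.44) and Mrps21 at 5.01, 5.05, 4.14 and 4.47 (SD 0.44); 1 of the 2 spots of each lies in the low-signal area, and both were lowest on replicate 3. Mrps21l, a protein-coding relative of Mrps21 in the RefSeq table, lay at 2.94, 2.97, 2.85 and 2.57 (SD 0.18). Whether the probes of this pair read each other's transcript was not tested, so their split is uncertain. The members without a sentence of their own had SDs between 0.07 (Mrpl51) and 0.33 (Mrpl50).

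At the other end, Mrps30 lay at 3.71, 3.75, 3.70 and 3.68 (SD 0.03), the smallest spread of the members. It encodes a large subunit protein that was once described as a programmed cell death protein. Mrpl44 came next with the values above. Mrps26 lay at 5.66, 5.64, 5.61 and 5.76 (SD 0.06), and Mrps17, of a bacterial family, at 3.77, 3.81, 3.81 and 3.67 (SD 0.07). In each of these 4 genes the lowest and highest arrays were within 0.15 log2 units.

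**Figure D2:**
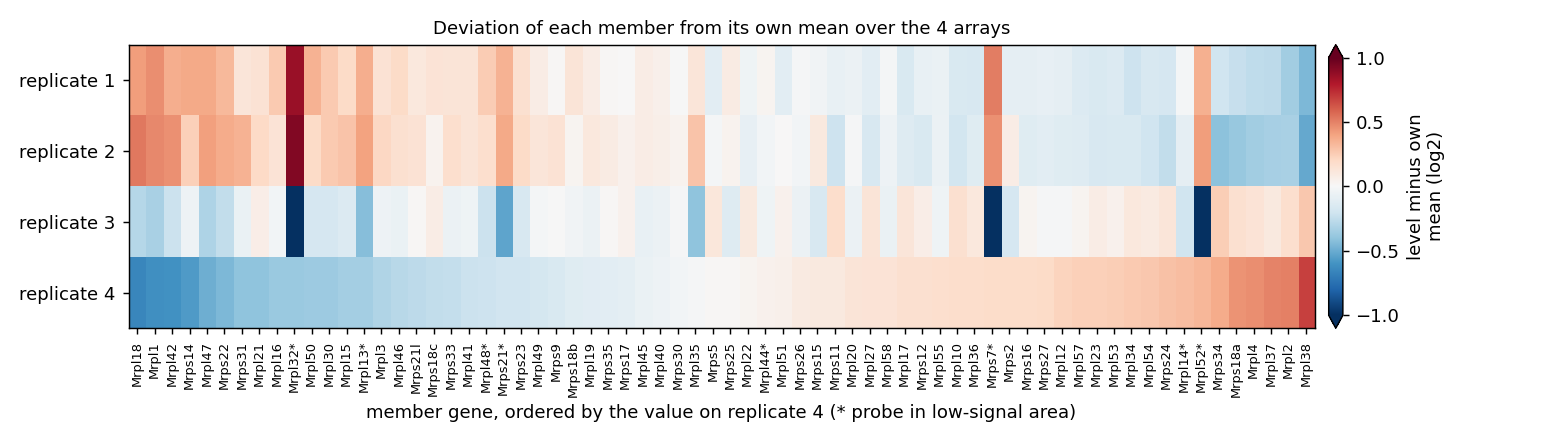
Deviation of each of the 68 members (columns, ordered by the value on replicate 4) from its own mean over the 4 arrays, in log2 units, for replicates 1 to 4 (rows); colours stop at 1 and -1, and an asterisk marks a spot in the low-signal area of replicate 3. Replicates 1 and 2 have like colours in most columns, replicate 4 runs from Mrpl18 at the low end to Mrpl38 at the high end, and the dark cells of replicate 3 belong to Mrpl32, Mrps7 and Mrpl52.

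With the percentile scaling, the members did not move together in 1 direction on any array. Those above their own mean numbered 36, 39, 27 and 35 of 68 on replicates 1 to 4 (52.9%, 57.4%, 39.7% and 51.5%), against 38.7%, 41.9%, 61.9% and 59.6% of all detected genes. The median shift from the gene's own mean was 0.01, 0.04, -0.04 and 0.01 in the members, against -0.07, -0.07, 0.06 and 0.10 in all detected genes. In the large subunit it was 0.01, 0.02, -0.04 and 0.04 and in the small subunit 0.01, 0.06, -0.02 and -0.04. These shifts depend on the scaling, so no direction is read from them alone. With normexp background correction the members' median was 0.07 on replicate 3 and -0.30 on replicate 4, against 0.09 and -0.13 in all detected genes. Spike-in scaling gave 0.46, 0.61, -0.20 and -0.84 on replicates 1 to 4, against 0.38, 0.50, -0.10 and -0.75 in all detected genes. The members' median minus that of all detected genes kept its sign. It was 0.08, 0.11, -0.10 and -0.09 on replicates 1 to 4, and 0.10, 0.11, -0.02 and -0.17 with normexp correction. The array at which a member was lowest was replicate 4 for 26 members (38.2%), replicate 2 for 17 (25.0%), replicate 3 for 16 (23.5%) and replicate 1 for 9 (13.2%), against 29.6%, 35.2%, 13.1% and 22% of all detected genes. The highest array was replicate 4 for 28 members (41.2%), replicate 2 for 25 (36.8%), replicate 1 for 11 (16.2%) and replicate 3 for 4 (5.88%), against 46.4%, 26.4%, 10.6% and 16.5% of all detected genes. Replicate 4, the dimmest array, was thus often an extreme in both directions, and the part of its brightness in these values was not tested.

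Replicates 1 and 2 were the closest pair. The median absolute difference over the 68 members was 0.05 log2 units between replicates 1 and 2, 0.19 between replicates 3 and 4, and 0.36 between replicates 2 and 4, against 0.08, 0.19 and 0.47 over all detected genes. In the 68 members, 78.5% of the variance over arrays lay on 1 axis, with weights of 0.47, 0.53, -0.50 and -0.50 on replicates 1 to 4, against 79.5% in all detected genes, with weights of 0.45, 0.54, -0.37 and -0.61. Without the genes in the low-signal area the shares were 93.6% in 60 members, against 87.9% in 6587 detected genes. The same pair of arrays thus stood against the other pair in the members and in all detected genes. All arrays lay on 1 slide and came from 1 scan, and differences in culture, RNA or labelling between the samples cannot be told apart here.

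A gene was read through its brightest probe, and 13 members had several probes, 30 in all. In 7 of these 13 every probe was well above background on all arrays. The 2 probes of Mrpl1 lay at 3.46, 3.47, 2.67 and 2.38 and at 3.23, 3.33, 2.53 and 2.46, so the low values on replicates 3 and 4 were found with both. For Mrpl41 the probes lay at 5.73, 5.73, 5.56 and 5.39 and at 5.74, 5.70, 5.46 and 5.42. Mrpl36 and Mrpl45 also gave probes that ordered replicates 1 and 2 against replicates 3 and 4 alike. In Mrpl17 both probes were detected, but at means of 7.40 and 1.71, and in Mrps27 at 0.58 and -0.77.

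In the other 6 genes a probe fell short. Mrpl30, of the bacterial L30 family, had 5 probes: 3 were detected, with means of 4.77, 2.91 and 1.38, and each of these was higher on replicates 1 and 2 than on replicates 3 and 4. Its other 2 probes were well above background on no array. Mrpl15, Mrpl47 and Mrps35 had 1 probe each that was well above background on no array, beside a detected one. The weakest of 3 Mrpl40 probes was marked on 1 array, and the weaker probe of Mrps21 on 2. Where probes of a gene disagree in this way, the deposited files do not say which one reads the gene's main transcript. RefSeq lists a pseudogene under the name of 21 members and 9 pseudogenes for Mrpl30, and binding of such copies to the same probe was not tested.

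**Figure D3:**
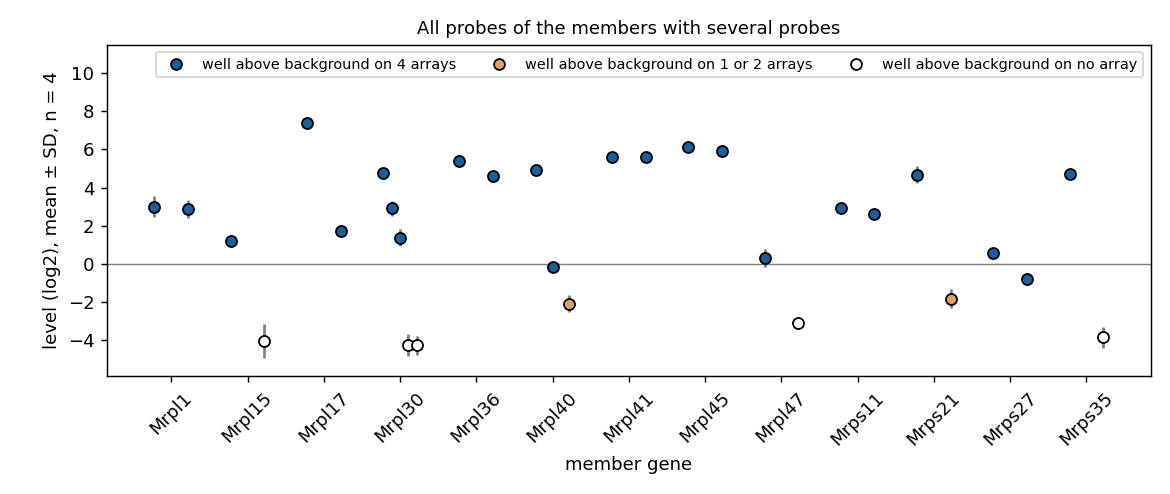
Mean level with SD over 4 arrays (log2, bars often smaller than the marker) of all 30 probes of the 13 members with several probes; filled blue circles were well above background on 4 arrays, orange ones on 1 or 2 and open ones on none. The probes of Mrpl1, Mrpl41 and Mrpl45 lie close together, while those of Mrpl15, Mrpl30, Mrpl47 and Mrps35 fall into detected and undetected ones.

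The other genes of mitochondrial translation were read from fixed lists. Mitochondrial ribosomal proteins that carry other symbols were detected in 5 of 5 cases, against 44.4% of all measured genes, with a median SD of 0.18. Dap3, a GTP-binding protein of the small subunit, lay at 2.69, 2.73, 2.80 and 2.77 (SD 0.05), and Ptcd3, a pentatricopeptide repeat protein of the same subunit, at 3.46, 3.45, 2.89 and 2.81 (SD 0.35). Dap3 varied little, whereas Ptcd3 was lower on replicates 3 and 4. Chchd1 lay at 5.48, 5.54, 5.39 and 5.41 (SD 0.07), Aurkaip1 at 6.28, 6.28, 6.51 and 6.65 (SD 0.18), and Gadd45gip1, of the large subunit, at 5.48, 5.36, 5.71 and 5.98 (SD 0.27).

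Among genes for factors that work on the ribosome, those detected on all 4 arrays numbered 8 of 13 for translation factors and 15 of 18 for assembly factors. They numbered 9 of 14 for mitochondrial aminoacyl-tRNA synthetases and 8 of 11 for transcription and RNA stability. These shares were 61.5%, 83.3%, 64.3% and 72.7%, against 44.4% of all measured genes. Among the translation factors, the elongation factor gene Tufm lay at 6.15, 6.05, 6.46 and 6.65 (SD 0.28) and Gfm1, for the translocase, at 3.77, 3.83, 3.54 and 3.44 (SD 0.19). Mtif3, an initiation factor gene, was well above background on 3 arrays, as were Gfm2, Mtrf1l and Taco1, and Mrrf, for ribosome recycling, on 2. The assembly factor genes short of all 4 arrays were Mrm2 and Ybey, on 3 arrays each, and Mrm1, a methyltransferase of the large ribosomal RNA, on none. Of the synthetase genes, Ears2 and Nars2 were marked on 3 arrays, Hars2 on 2, Vars2 on 1 and Aars2 on none.

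Lrpprc, which protects mitochondrial messages, lay at 2.68, 2.67, 2.72 and 2.36 (SD 0.17), while its binding partner Slirp was well above background on no array, and neither was the exoribonuclease gene Pnpt1. Tefm, for transcription elongation, was marked on 2 arrays, and its probe and those of Hars2 and Ybey lie in the low-signal area of replicate 3. A gene not well above background may still be expressed, since the reading concerns the probe. The median SD of the detected genes was 0.23 for translation factors, 0.32 for assembly factors, 0.23 for synthetases and 0.28 for transcription and RNA stability. It was 0.19 for the cytosolic ribosomal proteins, whose list was narrowed after its values were seen.

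**Figure D4:**
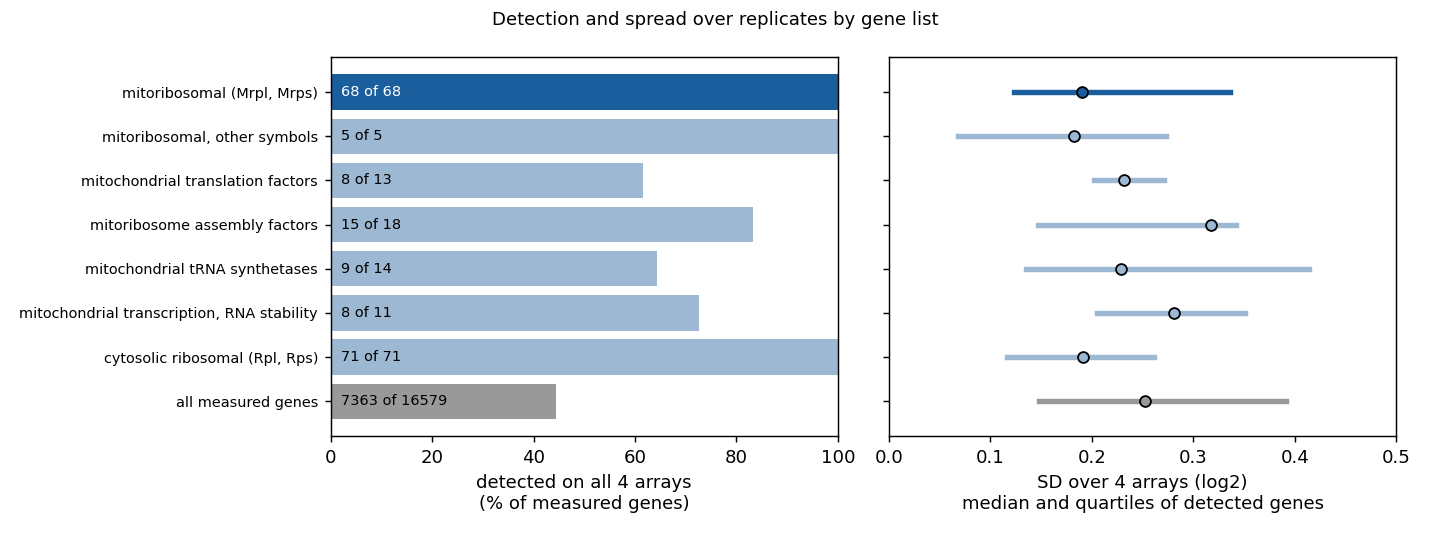
Share of measured genes detected on all 4 arrays (left, percent, with counts in the bars) and median SD over 4 arrays with quartiles in the detected genes (right, log2), for the members at the top, related gene lists and all measured genes at the bottom. The members, the mitochondrial ribosomal proteins under other symbols and the cytosolic ribosomal proteins were detected in all cases, against 44.4% of all measured genes. The cytosolic list was narrowed after its values were seen.

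The promoters of the members are shown because the genes were detected as a group. A window of 250 bases before to 50 after the annotated start, from RefSeq (GRCr8), was matched for 55 of the 68 members. It was searched on both strands for 7 short motifs that are bound by named factors or found at core promoters. The letters CCGGAAG, the core of ETS family sites such as those of GABP (also named NRF2, a different protein from the antioxidant regulator), were found in 19 members (34.5%), against 21.2% of 6185 detected genes and 9.22% of all 27457 promoters. TGCGCA, the core of sites of NRF1, a regulator of nuclear genes for mitochondria, was found in 16 (29.1%), against 14.6% and 7.68%. GATGGCG, the core of YY1 sites, was found in 10 (18.2%), against 8.28% and 4.26%. At least 1 of these 3 was in 34 members (61.8%), against 37.6% of detected genes and 18.7% of all, and in no member did matches of different ones of the 3 share a base. The 7 motifs were chosen after the data had been examined, and these 3 are those furthest above the detected genes. Their pooled share is therefore a description only.

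The other motifs were closer to the detected genes. CCAAT, read by NF-Y, was in 45.5% of the members, against 39.7% of detected genes and 37.7% of all promoters. GGGCGG, the core of SP and KLF sites, was in 52.7%, against 62.9% and 34.9%. TATAA was in 14.5%, against 13.9% and 26.1%, and the E-box CACGTG in 10.9%, against 10.1% and 6.65%. The median GC content of the windows was 56.3% in the members, against 60.7% in detected genes and 52.3% in all promoters, with a median of 18, 21 and 7 CpG. Base composition therefore differs between the sets, and its part in the motif counts was not tested.

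**Figure D5:**
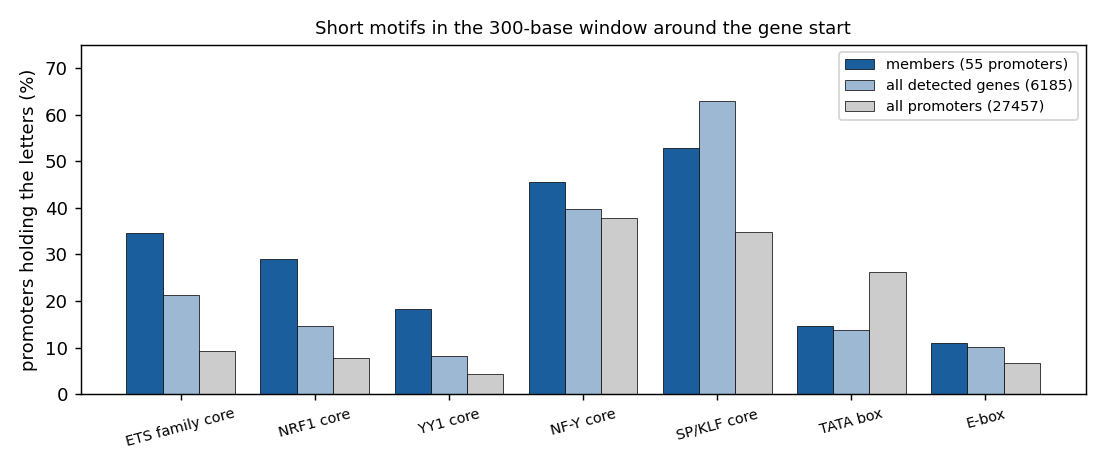
Share of promoters (percent) whose 300-base window around the annotated start holds each of 7 short motifs on either strand, for 55 members, 6185 detected genes and 27457 promoters in all. The members have the tallest bars for the ETS, NRF1 and YY1 cores (34.5%, 29.1% and 18.2%), and not for the SP/KLF core (52.7%, against 62.9% of detected genes).

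The 3 members whose window holds the ETS, NRF1 and YY1 cores are printed to show how the cores lie, 5′ to 3′ on the gene's strand, with the cores in capitals on whichever strand they match (CTTCCGG and CGCCATC are the reverse strand of the ETS and YY1 cores). They are Mrpl36 (chr1:31795072-31795371, minus strand), Mrpl57 (chr15:36086207-36086506, plus strand) and Mrps18a (chr9:22367331-22367630, minus strand).
Mrpl36: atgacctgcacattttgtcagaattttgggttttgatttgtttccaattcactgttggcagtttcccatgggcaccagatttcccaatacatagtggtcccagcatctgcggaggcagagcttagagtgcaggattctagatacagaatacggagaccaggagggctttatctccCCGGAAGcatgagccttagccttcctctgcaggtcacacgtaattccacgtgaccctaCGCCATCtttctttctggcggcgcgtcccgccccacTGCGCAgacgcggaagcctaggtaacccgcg
Mrpl57: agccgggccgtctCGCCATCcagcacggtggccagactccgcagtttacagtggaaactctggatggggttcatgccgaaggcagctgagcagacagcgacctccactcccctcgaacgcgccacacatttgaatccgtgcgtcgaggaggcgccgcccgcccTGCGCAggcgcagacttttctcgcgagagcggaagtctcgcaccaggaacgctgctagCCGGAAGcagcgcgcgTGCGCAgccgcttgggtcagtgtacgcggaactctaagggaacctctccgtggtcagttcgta
Mrps18a: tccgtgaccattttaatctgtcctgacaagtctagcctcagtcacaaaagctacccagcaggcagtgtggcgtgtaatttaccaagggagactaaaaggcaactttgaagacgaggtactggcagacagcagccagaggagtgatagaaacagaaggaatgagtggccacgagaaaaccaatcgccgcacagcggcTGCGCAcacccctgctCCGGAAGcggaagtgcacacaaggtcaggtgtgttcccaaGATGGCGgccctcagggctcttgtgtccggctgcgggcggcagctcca
Positions are those of a core's leftmost base, counted from 1 at the start and -1 just before it. Mrpl36, of the bacterial L36 family, has the ETS core at -75, the YY1 core at -17 and the NRF1 core at 20. Mrpl57 has NRF1 cores at -87 and -13, the ETS core at -29 and the YY1 core at -237. In Mrps18a the NRF1 core at -54, the ETS core at -38 and the YY1 core at 3 lie close to the start.

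On the arrays, Mrpl36 lay at 5.23, 5.26, 5.49 and 5.56 (SD 0.16) and Mrpl57 at 6.42, 6.43, 6.58 and 6.79 (SD 0.17), and both were lowest on replicates 1 and 2, as was Mrps18a. Of the 10 members with a YY1 core, 8 had it on the gene's own strand after the start, between positions 3 (Mrps18a) and 32 (Mrps27), which is 80.0%, against 43.9% of the 512 detected genes with that core and 33.2% of all 1169. Its letters contain ATG, and overlap with a start codon was not tested. Mrpl32 held 4 NRF1 cores, at -181, -63, -57 and -44. A match in these windows describes the letters and does not show that a factor is bound.

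Several members share their promoter region with a gene on the opposite strand. The windows of 15 of the 55 (27.3%) overlapped that of an opposed gene, against 16.4% of detected genes and 9.67% of all promoters. Partners included Tcp1, a cytosolic chaperonin subunit (with Mrpl18), Psma2, a proteasome subunit (with Mrpl32), Ndufb5, a subunit of respiratory complex I (with Mrpl47), Fau, which encodes a cytosolic ribosomal protein fused to a ubiquitin-like one (with Mrpl49), and Ptcd2, a mitochondrial RNA-binding protein (with Mrps27). In 1 case both genes were members. Mrpl46 (chr1:142116981-142117280, minus strand) and Mrps11 (chr1:142117014-142117313, plus strand) share 267 bases of their windows, and both windows are printed to show the overlap, each on its gene's strand, with capitals for the YY1 core of Mrpl46 at position 27.
Mrpl46: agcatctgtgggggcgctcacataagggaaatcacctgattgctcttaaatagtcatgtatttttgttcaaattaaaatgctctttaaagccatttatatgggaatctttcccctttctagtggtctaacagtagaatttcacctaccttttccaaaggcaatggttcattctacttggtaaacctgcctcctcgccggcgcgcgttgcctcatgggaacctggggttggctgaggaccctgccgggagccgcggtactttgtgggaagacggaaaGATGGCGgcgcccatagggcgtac
Mrps11: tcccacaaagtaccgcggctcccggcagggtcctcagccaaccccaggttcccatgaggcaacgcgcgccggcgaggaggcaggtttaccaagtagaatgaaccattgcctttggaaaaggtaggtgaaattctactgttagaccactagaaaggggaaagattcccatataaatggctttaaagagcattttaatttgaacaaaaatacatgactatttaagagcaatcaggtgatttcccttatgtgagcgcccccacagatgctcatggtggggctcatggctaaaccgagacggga
The window of Mrps11 holds none of the 3 cores. With the levels given above, Mrpl46 was higher on replicates 1 and 2 than on replicates 3 and 4, whereas Mrps11 was higher on replicates 3 and 4, with both of its probes. The pair thus encodes a large and a small subunit protein from 1 shared stretch and did not share an order over the arrays.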

How the data were processed

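Each sample's deposited file holds linear spot intensities of a 1-colour (Cy3) array, read by Agilent Feature Extraction 11.0.1.1 per the file headers and the submitters' processing notes. The processed signal is background-corrected within each array by that software and is not normalized between arrays; the deposited flags mark spots well above background. Here its log2 was averaged per probe, without spots flagged as non-uniform or as population outliers, and set relative to the 75th percentile of the array's 45598 sample probes. The SD is over n = 4 arrays. Probes were named by RefSeq transcript accession in a GRCr8 gene table (21109 named, 24489 unnamed), and a gene took its brightest probe. A probe was well above background on an array when over 50% of its spots were.

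The members and lists were chosen with earlier results of these data known. The 7 motifs, the outline of the low-signal area, the exact pattern for cytosolic ribosomal proteins (narrowed once its values were seen) and the percentile over spots were chosen after the data had been examined. The motifs and the cytosolic list are descriptions only. Genes were named by rule: members not detected, the 8 with the largest and 4 with the smallest SD, the structural and disease lists, the S18 paralogues and members whose probes disagree; of the other lists, members not detected, those under other symbols and a few examples (Tufm, Gfm1 and Lrpprc were picked for their role after their values were seen). Mrpl2, Mrpl4, Mrpl13, Mrpl37, Mrpl41, Mrps21l and the promoters printed were also picked after their values or sequences were seen.

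With 1 group no test between conditions was made; Dixon's ratio over the 4 arrays was used only to mark single arrays that stood apart. A further macrophage marker, beside those given in the text, is not reported here. Alternatives were normexp background correction, 4 other scalings, the mean over probes, other detection rules, leaving out the low-signal area and leaving out each array. Arrays give no read depth; their number limits the precision. The steps for the SD, the shift and the deviation of 1 array were tested on simulated data with independent noise. Detection, scaling, the low-signal area, Dixon's ratio and the promoter steps were not. Tools were R 4.3.3, limma 3.58.1, Python 3.11.15, matplotlib 3.10.9, scipy 1.17.1, pandas 2.3.3 and numpy 2.4.6.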

Additional observations from a re-analysis of the deposited data

Results flagged for a closer look

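In 2 members 1 array stood apart from the other 3, by the gap to its nearest neighbour as a share of the whole range of the 4 arrays (Dixon's ratio, at its 95% critical value). Chance flags about 1 group in 20, and 2.94% of the members passed, against 3.18% of all detected genes. For Mrpl52 the share was 0.946: replicate 3 lay at 1.54, the other arrays between 2.97 and 3.05, and its spot on replicate 3 lies in the low-signal area. For Mrpl55, a large subunit protein without a bacterial counterpart, it was 0.895: replicate 4 lay at 4.88 and the other arrays between 4.64 and 4.67, so that the gap was wide only beside a total range of 0.23 log2 units.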

How the results depend on the processing

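Of 212 values of 16 results under 14 alternatives, 194 moved by less than the members' median SD (0.19) or, for counts, stayed within 1.5 times. The median shifts were smaller than that limit, so a change of sign could pass as unmoved. On replicate 3 the members' median shift went from -0.04 to 0.07 with normexp correction and was counted so. Looser detection rules could change no value, as all members were already detected. The 194 are therefore not read as a measure of stability. Spike-in scaling, which keeps the arrays' differences in brightness, gave a median SD of 0.70, against 0.58 in all detected genes, 54 members with an SD above 0.5 (79.4%, against 59.8% of all detected genes), and median shifts on replicates 1, 2 and 4 of 0.46, 0.61 and -0.84 for all members, 0.46, 0.59 and -0.81 for the large and 0.46, 0.62 and -0.89 for the small subunit, beside 0.38, 0.50 and -0.75 for all detected genes. Normexp correction gave 11 members with an SD above 0.5 (16.2%, against 7.01% of all detected genes) and a median SD of 0.24, against 0.23. Its shifts on replicate 4 were -0.30 for all members, -0.30 for the large and -0.31 for the small subunit, beside -0.13 for all detected genes. Leaving out the low-signal area gave 4 members with an SD above 0.5 (6.35%, against 10.0% of all detected genes), since Mrpl32, Mrpl52 and Mrps7 were then not measured. Leaving out 1 array at a time gave 4 to 7 such members (5.88% to 10.3%, against 5.57% to 16.6% of all detected genes) and a median SD of 0.14 to 0.20. The 4 were found without replicate 4 (5.88%, against 5.57%). With the percentile over probes detected on all arrays, 34 members were above it on all arrays, since that percentile is higher by construction. With the percentile over spots the count was 46. The share of all detected genes above either percentile is not given here. Apart from the constructions named, the cause was not tested. Detection was read from the deposited flags, which no scaling alters, so the 68 detected members under each scaling are no test of that count. The same holds for the 63 members still measured without the low-signal area. With every probe required, 62 members were detected. No paired analysis was possible because the labels give 1 group.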
